A study of Rattus norvegicus with 6 samples.

Results

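The GABA-A receptor subunit genes *Gabra2*, *Gabra3*, *Gabra5*, *Gabrb1*, *Gabrb2*, *Gabrg1* and *Gabrd* were followed in rat spinal cord RNA-seq. They are 7 of the 16 GABA-A subunit genes analysed here and of the 22050 genes in the expression table, and were matched by gene symbol. They had been picked with their levels in sham and SNI-NP rats already known, so the comparison of these genes between the groups is given as a description without a test. Spinal cord tissue was sequenced as 3 libraries from sham-operated rats and 3 libraries from rats with spared nerve injury (SNI), a model of neuropathic pain (NP) in which sciatic nerve branches are cut or tied and the sural branch is spared. All rats were adult males of the Sprague-Dawley strain with no other treatment named for these samples, and the sham operation is the control. The side and level of the cord, the time after surgery and whether a library held 1 animal are not given in the sources used here, so the spread between libraries may be partly technical.

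GABA-A receptors are chloride channels made of 5 subunits that open when GABA binds, and in adult spinal cord they reduce the firing of neurons that relay pain and touch. Most contain α and β subunits, which form the GABA site together, plus a γ subunit, which forms the benzodiazepine site with α and holds the receptor at synapses. Receptors with δ in place of γ, and many with α5, lie outside synapses and respond to low ambient GABA.

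The libraries held between 16670759 and 18151157 estimated counts. Against the label of spinal cord, they were rich in transcripts of peripheral tissue. *Prx*, which encodes a Schwann cell protein of peripheral myelin, reached 4032 to 6419 CPM (counts scaled to a library size shared by all samples), whereas *Mbp*, which central and peripheral myelin share, was at 25760 to 34303 CPM. The summed level of 8 markers of dorsal root ganglion neurons was 408, 802 and 937 CPM in sham replicates 1 to 3 and 89.1, 1266 and 917 CPM in SNI-NP replicates 1 to 3. The summed level of 5 markers of inhibitory neurons (*Gad1*, *Gad2*, *Slc32a1*, *Slc6a5* and *Pax2*) was 416, 133 and 290 CPM in sham rats and 248, 161 and 157 CPM in SNI-NP rats. Sham replicate 2 was thus poor in inhibitory neuron transcripts and SNI-NP replicate 1 poor in ganglion transcripts. The shortfall of sham replicate 2 was not particular to inhibitory neurons. Its summed motor neuron markers (25.1 CPM) and astrocyte markers (749 CPM) were also the lowest of the 6 libraries. Of 5 motor neuron markers, *Slc18a3*, *Slc5a7*, *Chat* and *Isl1* were detected in every library, with *Slc5a7* at 5.55 to 21.6 CPM, and *Mnx1* was at 0 to 0.54 CPM. *Isl1*, at 0.58 to 6.78 CPM, ranked the libraries as the ganglion neuron markers did, so it does not speak for motor neurons here. In bulk tissue, fewer cells of a type and less RNA per cell cannot be told apart, and this holds for every gene below.

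The genes lie in clusters. In the RefSeq annotation of the rat assembly GRCr8, *Gabrb1*, *Gabra4*, *Gabra2* and *Gabrg1* follow each other on chromosome 14 with *Cox7b2* as the only other protein-coding gene between them. *Gabra5* lies beside *Gabrg3* on chromosome 1, *Gabrb2* next to *Gabra6* on chromosome 10, and *Gabra3* on the X chromosome with *Gabre* and *Gabrq*. *Gabrd* is on chromosome 5, beside no other subunit gene. RefSeq promoter windows of 300 bases were at hand for 6 of the 7 genes, all except *Gabra2*. Those of *Gabrb1* and *Gabrb2*, which lie on different chromosomes, shared 3 runs of at least 10 bases in the same order. These β subunit genes also had the lowest ratios of SNI-NP to sham mean level of the 7 genes, but the place of *Gabrb1* was not stable. It was at 38.5% and *Gabra2* at 44.5% of the sham mean. Without SNI-NP replicate 2, *Gabrb1* was less reduced than *Gabra2*, at log2 fold changes of -0.94 and -1.13. A link between the shared runs and the levels was not tested. In the lines below, the shared runs are in capitals, and the first of them holds GCGCATGCGC, the core of the site of the transcription factor NRF1.
Gabrb1: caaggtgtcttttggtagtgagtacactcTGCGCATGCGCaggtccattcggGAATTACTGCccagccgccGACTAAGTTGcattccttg
Gabrb2: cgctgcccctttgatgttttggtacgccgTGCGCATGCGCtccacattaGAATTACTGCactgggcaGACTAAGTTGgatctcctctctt
The *Gabrb1* stretch is chr14:36902863-36902952 on the minus strand and the *Gabrb2* stretch chr10:27439668-27439757 on the plus strand (GRCr8). The NRF1 core begins 29 bases before the annotated start of *Gabrb1* and 95 bases before that of *Gabrb2*. On either strand, 0.852% of 33469 rat promoter windows held this core, 0.0388% held GAATTACTGC and 0.0149% held GACTAAGTTG. These letters were searched after the sequences had been seen, and a match does not show that a factor binds. Among other motifs searched on both strands, the GC box GGGCGG was in the windows of *Gabra5* and *Gabrd* (33.1% of all windows) and TATAAA in that of *Gabra3* (14.2%). The cAMP response element TGACGTCA (1.83%) and the AP-1 motif TGANTCA (7.33%) were in none of the 6 windows.

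Of the 3 α subunit genes, *Gabra2* showed the clearest separation. *Gabra2* (ENSRNOG00000002349) encodes α2, a subunit of dorsal horn synapses through which benzodiazepine-site drugs reduce pain behaviour in rodents. It was at 17.5, 14.6 and 16.0 CPM in sham replicates 1 to 3 and at 7.19, 6.83 and 7.42 CPM in SNI-NP replicates 1 to 3. All SNI-NP libraries lay below all sham libraries, and the spread within each group was small beside the gap. The means were 16.0 ± 1.47 and 7.15 ± 0.30 CPM (SD, n = 3 each), so that the SNI-NP mean was 44.5% of the sham mean. The fitted log2 fold change was -1.17 with a standard error of 0.15, and it lay between -1.23 and -1.11 when any 1 library was left out.

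*Gabra3* (ENSRNOG00000056558), which encodes α3, a synaptic subunit of the superficial dorsal horn, was at 22.0, 15.4 and 19.2 CPM in sham rats and at 14.1, 14.6 and 13.4 CPM in SNI-NP rats. The groups did not overlap, but the lowest sham library exceeded the highest SNI-NP library by little. The log2 fold change of *Gabra3* was -0.42 (standard error 0.16). *Gabra5* (ENSRNOG00000010803), which encodes the mainly extrasynaptic α5, was at 17.5, 7.77 and 11.5 CPM in sham rats and at 10.01, 8.77 and 7.94 CPM in SNI-NP rats. The groups overlapped, because sham replicate 2 had the lowest value of the 6 libraries. The log2 fold change of *Gabra5* was -0.46 (standard error 0.29), and it ranged from -0.70 without sham replicate 2 to -0.13 without sham replicate 1.

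**Figure D1:**
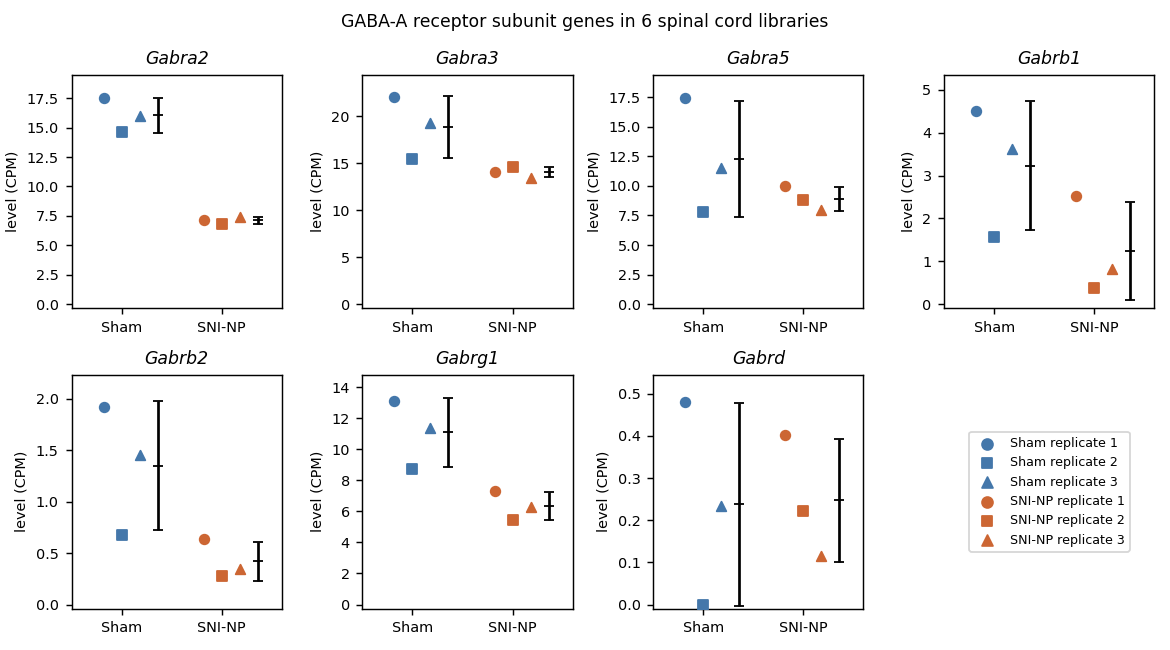
Level in CPM of each of the 7 genes in each library, with circles, squares and triangles for replicates 1, 2 and 3, and black bars for the mean ± SD (n = 3 per group). *Gabra2* separates the groups with little spread, whereas the groups overlap for *Gabra5*, *Gabrb1* and *Gabrd*.

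The β subunit genes were scarcer and more variable. *Gabrb1* (ENSRNOG00000002327), which encodes β1, had 75, 28 and 62 counts in sham rats and 44, 7 and 14 counts in SNI-NP rats, or 4.50, 1.58 and 3.61 CPM and 2.53, 0.39 and 0.81 CPM. SNI-NP replicate 1 lay above sham replicate 2, so the groups overlapped. The log2 fold change of *Gabrb1* was -1.37 (standard error 0.68) over all libraries and -2.42 (standard error 0.60) when SNI-NP replicate 1 was left out. Of the SNI-NP libraries, that one was the poorest in ganglion transcripts and the richest in inhibitory neuron and astrocyte transcripts. *Gabrb2* (ENSRNOG00000003680), which encodes β2, had 32, 12 and 25 counts in sham rats and 11, 5 and 6 counts in SNI-NP rats, or 1.92, 0.68 and 1.46 CPM and 0.63, 0.28 and 0.35 CPM. The highest SNI-NP library was just below the lowest sham library, at a depth of 11 against 12 counts. The log2 fold change of *Gabrb2* was -1.67 with a standard error of 0.55. Counts this low leave a wide error, and the standard errors of both β genes were more than 3 times that of *Gabra2*.

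*Gabrg1* (ENSRNOG00000002360) encodes γ1, a subunit that can take the place of γ2 and often accompanies α2. It was at 13.1, 8.73 and 11.4 CPM in sham rats and at 7.30, 5.44 and 6.32 CPM in SNI-NP rats. Every SNI-NP library was below every sham library, and the log2 fold change of *Gabrg1* was -0.80 (standard error 0.21). *Gabrd* (ENSRNOG00000016385), which encodes the extrasynaptic δ subunit, had 8, 0 and 4 counts in sham rats and 7, 4 and 2 counts in SNI-NP rats. A count of 0 in sham replicate 2 allowed a level of up to 0.169 CPM, a limit that covers counting error only. At this depth no difference in *Gabrd* was detectable, and it did not pass the filter on low counts, so 6 of the 7 genes entered the fit.

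In 4 of the 7 genes (*Gabra2*, *Gabra3*, *Gabrb2* and *Gabrg1*) all SNI-NP libraries were below all sham libraries, which was so for 8.15% of the 14426 genes tested. The log2 fold change was below 0 in all 6 genes in the fit and in 49.1% of all genes tested, and the median was -0.98 for the 6 genes and 0.01 for all genes tested. When sham replicate 2 was left out, the groups did not overlap in 6 of the 7 genes, and when SNI-NP replicate 1 was left out, in 5. Fewer libraries make such a separation easier for any gene, and the share of all genes was not computed for these settings. Since the genes were picked on this contrast, nothing is read from these counts.

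Levels of different genes were compared as FPKM, which divides by transcript length. In sham rats the order of the chosen genes by mean FPKM was *Gabra3* (8.33), *Gabra2* (8.06), *Gabrg1* (6.46), *Gabra5* (5.003), *Gabrb1* (1.69), *Gabrb2* (0.65) and then *Gabrd*. In SNI-NP rats it was *Gabra3* (6.07), *Gabra5* (3.61), *Gabrg1* (3.60), *Gabra2* (3.40), *Gabrb1* (0.63), *Gabrb2* (0.19) and *Gabrd*. Among neighbours in this order, the steps from *Gabra5* to *Gabrb1* and from *Gabrb2* to *Gabrd* exceeded the sum of the 2 SDs in sham rats, and the steps from *Gabra3* to *Gabra5* and from *Gabra2* to *Gabrb1* did so in SNI-NP rats. The other neighbours did not differ beyond their spread.

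**Figure D2:**
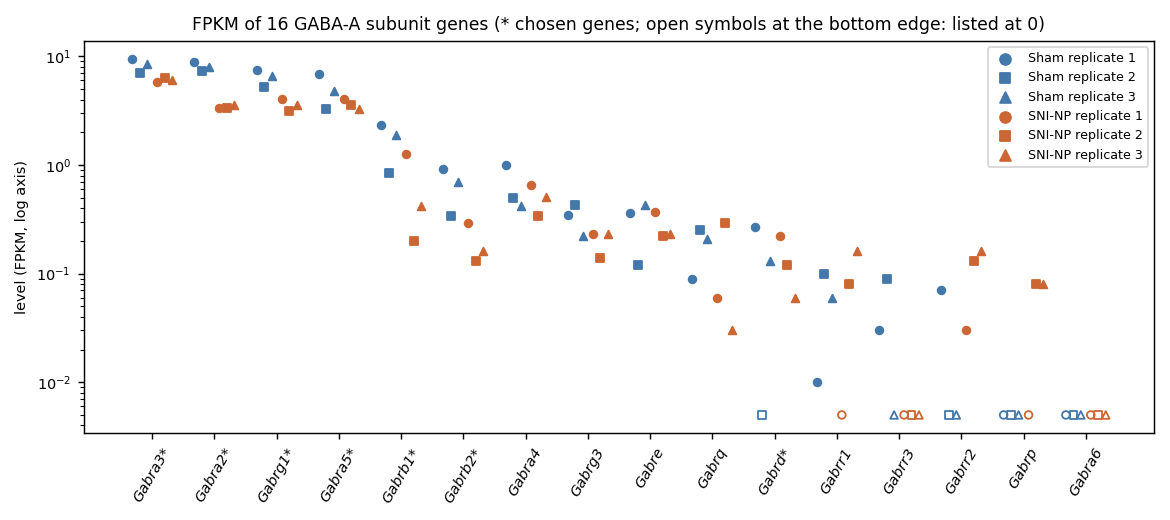
FPKM on a log axis of the 16 GABA-A subunit genes in each library, ordered by the sham mean, with the 7 chosen genes marked by a star. Open symbols at the bottom edge are libraries where a gene is listed at 0. The levels of *Gabra3*, *Gabra2*, *Gabrg1* and *Gabra5* lie between 3.16 and 9.55 FPKM, and *Gabrd* lies far below them.

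The makeup of the α genes differed between the groups. *Gabra2* made up 33.6%, 40.6% and 36.9% of the summed FPKM of 5 α genes (*Gabra2* to *Gabra6*) in sham rats and 24.1%, 24.5% and 26.6% in SNI-NP rats. *Gabra3* had the opposite order as a share, with 36.4%, 38.5% and 39.0% in sham rats and 42.1%, 46.6% and 45.2% in SNI-NP rats, although its own level was lower. The shares of both genes thus did not overlap between the groups, whereas those of *Gabra5* did, at 22.2 ± 4.0% and 26.6 ± 2.4% (SD, n = 3 each). The summed FPKM of the 5 genes was 26.3, 18.1 and 21.7 for sham replicates 1 to 3, against 13.8, 13.6 and 13.4 for SNI-NP replicates 1 to 3, and the SNI-NP mean was 61.7% of the sham mean. These sums rest mostly on the chosen genes, and the differences are a description.

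**Figure D3:**
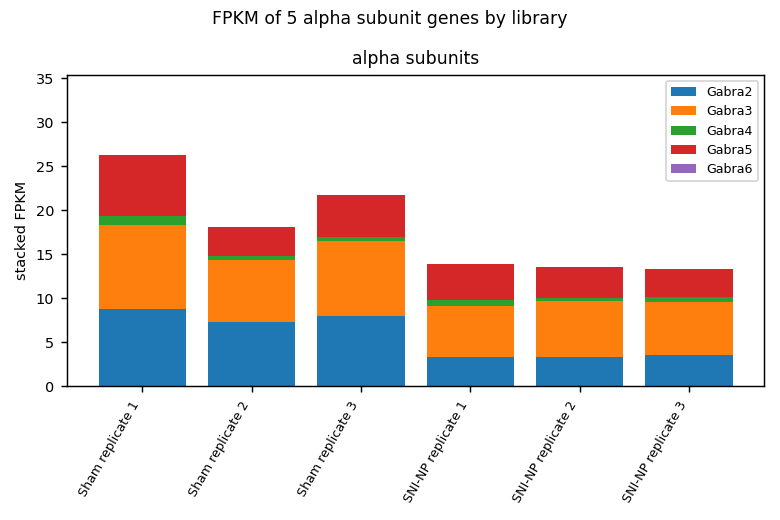
Stacked FPKM of 5 α subunit genes in each library. The stack is lower in the 3 SNI-NP libraries than in the 3 sham libraries, and *Gabra2* takes a smaller share of it there, at 25.1% against 37.0% on average.

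Within the groups, all 6 genes in the fit followed both the astrocyte list and the inhibitory neuron list. They differed in how far their level varied with the inhibitory neuron list. With each group's mean removed, Pearson's r with that list over the 6 libraries was 0.83 for *Gabra2*, 0.90 for *Gabra3*, 0.96 for *Gabra5*, 0.80 for *Gabrb1*, 0.97 for *Gabrb2* and 0.94 for *Gabrg1*, given as a description of libraries that share their depth and tissue makeup. With the list of astrocyte markers, r in that order of genes was 0.84, 0.91, 0.97, 0.78, 0.96 and 0.94. With the ganglion list r was below 0 for all 6 genes, from -0.18 for *Gabra3* to -0.86 for *Gabrb1*. *Gabra2* changed little within a group while the markers varied widely. Its highest library was 1.20 times its lowest in sham rats and 1.09 times in SNI-NP rats, whereas the inhibitory neuron list varied 3.12-fold among sham libraries and the ganglion list 14.2-fold among SNI-NP libraries. *Gabra5* ranked the 6 libraries in the same order as the inhibitory neuron list. Per 1000 CPM of that list, *Gabra5* was at 42.0, 58.3 and 39.7 CPM in sham rats and at 40.3, 54.5 and 50.7 CPM in SNI-NP rats, so that the ratio overlapped between the groups. The ratio of *Gabra2* to that list also overlapped, at 42.1, 109 and 55.1 CPM in sham rats and at 29.0, 42.5 and 47.4 CPM in SNI-NP rats.

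The β genes combined both patterns. Per 1000 CPM of the inhibitory neuron list, *Gabrb2* was at 4.61, 5.07 and 5.01 CPM in sham rats. In SNI-NP rats *Gabrb2* was at 2.55, 1.73 and 2.22 CPM on that scale. The sham values lay close together although the level of *Gabrb2* varied 2.84-fold there, but they rest on only 32, 12 and 25 counts. *Gabrb1* on that scale was at 10.8, 11.8 and 12.4 CPM in sham rats and at 10.2, 2.42 and 5.18 CPM in SNI-NP rats. Both ratios were lower in every SNI-NP library, although *Gabrb1* itself overlapped and its ratio was separated by little (10.2 against 10.8 CPM). Per 1000 CPM of 9 general neuron markers, *Gabra2* was at 6.44, 6.55 and 4.91 CPM in sham rats and at 4.15, 2.06 and 2.67 CPM in SNI-NP rats, without overlap. The sum of these markers was lowest in SNI-NP replicate 1 (1733 CPM) and highest in SNI-NP replicate 2 (3315 CPM). Among sham libraries it did not follow the ganglion list. It was 2722 CPM in sham replicate 1 and 2229 CPM in sham replicate 2, which held more ganglion transcripts. *Tubb3* and *Stmn2* were at 516 and 254 CPM in SNI-NP replicate 1, the library poorest in ganglion transcripts. In SNI-NP replicate 2, the richest, they were at 1516 and 831 CPM. *Map2* and *Snap25* went the other way, *Map2* at 158 and 60.1 CPM and *Snap25* at 177 and 130 CPM. On the scale of the general neuron markers *Gabrb1*, *Gabrb2* and *Gabra5* overlapped between the groups, with *Gabrb2* at 0.71, 0.30 and 0.45 CPM in sham rats and at 0.37, 0.084 and 0.12 CPM in SNI-NP rats. Per 1000 CPM of the ganglion list, these 3 genes and *Gabra2* overlapped.

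**Figure D4:**
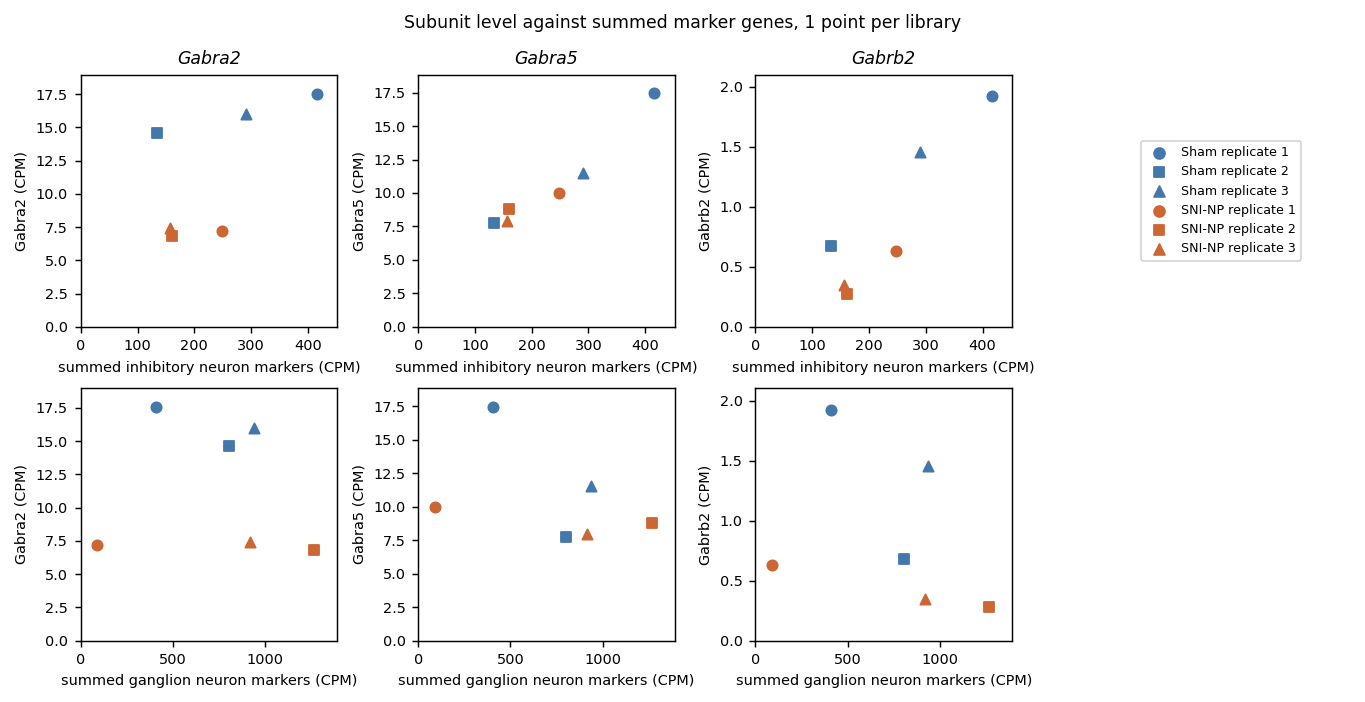
Level in CPM of *Gabra2*, *Gabra5* and *Gabrb2* (vertical axes) against the summed CPM of 5 inhibitory neuron markers (top row) and 8 ganglion neuron markers (bottom row), 1 point per library. *Gabra5* follows the inhibitory neuron markers over all 6 libraries, and *Gabrb2* lies lower in SNI-NP rats at a like marker level. *Gabra2* has a small range within each group beside that of the markers.

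With the level of the inhibitory neuron list as a term in the fit, added after the data were seen, the log2 fold change was -0.10 (standard error 0.17) for *Gabra5*, -0.29 for *Gabra3*, -0.83 for *Gabrb1*, -1.14 for *Gabrb2*, -0.62 for *Gabrg1* and -1.10 for *Gabra2*. In proportion to its value in the reported fit, *Gabra5* was thus the most reduced of the 6 and *Gabra2* the least, whereas in absolute terms *Gabrb1* and *Gabrb2* moved more than *Gabra5*. With the ganglion list as a term instead, *Gabra2* was at -1.18, *Gabrg1* at -0.87, *Gabrb2* at -1.91 and *Gabrb1* at -2.03. The summed level of 6 astrocyte markers ranked the libraries as the inhibitory neuron list did, with 1829, 749 and 1343 CPM in sham rats and 1267, 928 and 896 CPM in SNI-NP rats, so these fits do not separate the cell types.

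**Figure D5:**
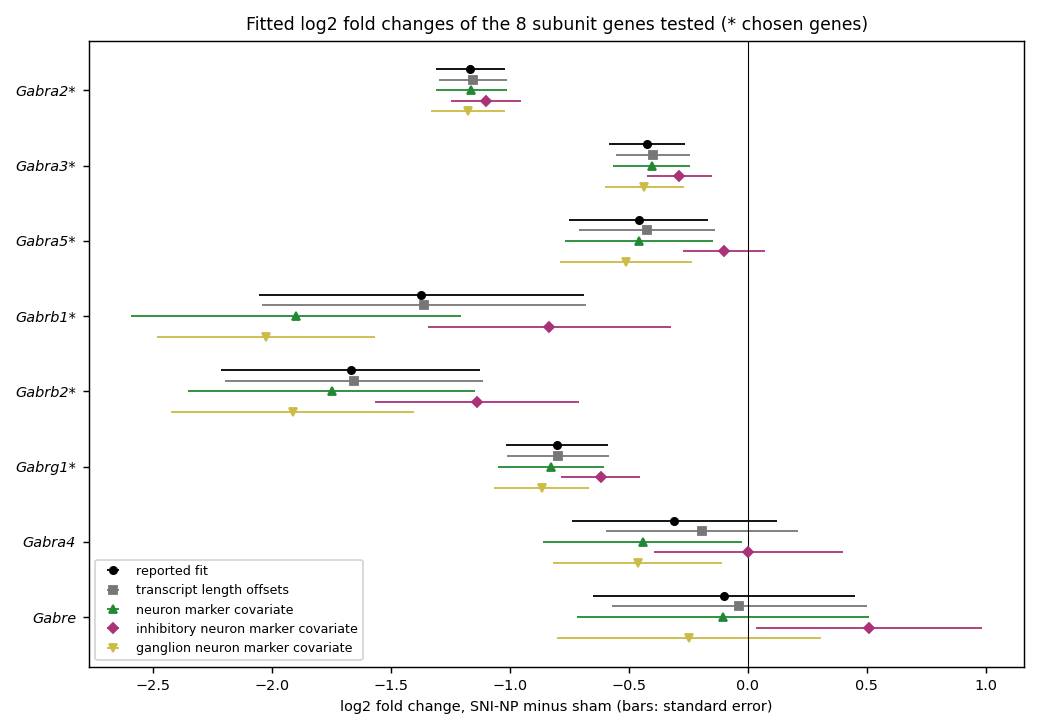
Fitted log2 fold change (SNI-NP minus sham) with its standard error for the 8 subunit genes tested, in the reported fit, with transcript length offsets, and with the level of each of 3 marker lists as a term. *Gabra2* lies between -1.18 and -1.10 in these 5 fits, while *Gabra5* moves from -0.46 to -0.10 with the inhibitory neuron markers.

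Of 9 other subunit genes, 2 entered the fit and 0 passed at an unadjusted p under 0.05 in edgeR's quasi-likelihood test, in which 5.94% of all genes tested were lower and 4.91% higher. *Gabra4*, whose product pairs with δ, had -0.31 (standard error 0.43, edgeR adjusted p = 0.805) on the log2 scale. It was at 4.44, 2.14 and 1.86 CPM in sham replicates 1 to 3 and at 3.05, 1.499 and 2.26 CPM in SNI-NP replicates 1 to 3. *Gabre*, which encodes ε, had -0.10 (standard error 0.55, edgeR adjusted p = 0.960). Both genes overlapped between the groups, and their direction depended on the fit. *Gabra6*, a gene of cerebellar granule cells, had 0 counts in every library, and *Gabrg3*, *Gabrp*, *Gabrq* and *Gabrr1* to *Gabrr3*, the last of which encode the ρ subunits, did not pass the filter. Across all 14426 genes, edgeR's test called 0 at an adjusted p under 0.05 (0.0%), with 1565 at an unadjusted p under 0.05 (10.8%), while DESeq2 called 210, of which 151 were lower (1.07% of 14143).

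The genes that make, load, take up and break down GABA were examined in the same fit. Of a list of 32 GABA pathway genes, all 32 were tested. At an unadjusted p under 0.05 in edgeR's test, 1 was lower (3.12%, against 5.94% of all genes) and 2 were higher (6.25%, against 4.91%), shares near the background. The median log2 fold change of the list was -0.09. The lower gene was *Plcl1* (-0.81, edgeR adjusted p = 0.442), whose product binds GABA-A receptors and takes part in their trafficking. The higher genes were *Srd5a1* (0.37, edgeR adjusted p = 0.384), a steroid reductase on the path to neurosteroids that act on these receptors, and *Tspo* (0.42, edgeR adjusted p = 0.445), a mitochondrial protein of steroid-making cells and glia. When sham replicate 2 was left out, 10 of the 32 genes were lower at the unadjusted threshold, whereas leaving out any other library gave 0 to 2. That library was poor in inhibitory neuron, motor neuron and astrocyte transcripts. The rise was not limited to this list, since in the same fit 21 cell type markers were lower, against 5 in the reported fit. Across all genes the rise was much smaller in proportion, to 1214 lower genes against 857 in the reported fit.

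Among the GABA-synthesis genes, *Gad1* had -0.42 (standard error 0.32) on the log2 scale and *Gad2* -0.90, and the vesicular transporter gene *Slc32a1* was at -0.33. None of these passed the unadjusted threshold in the reported fit (edgeR adjusted p = 0.626, 0.497 and 0.765). *Gad2* passed it in DESeq2 (-0.91), with the replicate number as a block (-0.87, and -0.69 with length offsets added), with the ganglion list as a term (-1.15) and without SNI-NP replicate 1 (-1.38). The uptake genes had values of -0.33 for *Slc6a11*, 0.65 for *Slc6a12* and 0.44 for *Slc6a13*, and the breakdown genes had -0.09 for *Abat* and -0.37 for *Aldh5a1*. The GABA-B receptor genes were at -0.09 (*Gabbr1*) and -0.20 (*Gabbr2*). Of the chloride transporters that set the direction of GABA currents, *Slc12a2*, which brings chloride in, was at -0.20 and *Slc12a5*, which moves it out, at -0.49 (edgeR adjusted p = 0.661). None of these uptake, breakdown, GABA-B and transporter genes passed the unadjusted threshold in the reported fit. Without sham replicate 2, *Gad1* (-0.70), *Gad2* (-1.23), *Slc32a1* (-0.68), *Slc6a11* (-0.69), *Aldh5a1* (-0.58) and *Slc12a5* (-0.83) passed it as lower and *Slc6a13* (0.65) as higher.

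The genes most like the chosen ones were sought by Pearson's r between log2 CPM and the mean standardised level of the 6 genes in the fit, over 6 libraries and among 11261 genes. The highest were *Dgke* (0.990), a diacylglycerol kinase, *Scn1a* (0.986), a neuronal sodium channel, *Cxxc4* (0.984), *Clcn4* (0.983) and *Edil3* (0.981). With each group's mean removed, they were *Nova1* (0.999), a neuronal splicing factor, *Col11a2* (0.998), *Tprn* (0.998), *Unc5b* (0.997) and *Fam168a* (0.997). With 6 points and this many genes searched, values this high are a description of these libraries.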

How the data were processed

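Spinal cord RNA-seq libraries, 3 of sham and 3 of SNI-NP rats, were analysed, with groups taken from the sample labels. The authors mapped reads to the Rat6 genome and kept unique sequences; the submitters' processing notes name FastQC, STAR and HTSeq, and the use of strand and the annotation release are not given in the sources used here. They deposited an estimated count per gene without normalization, and FPKM values, which scale by transcript length and library total. The counts of the 7 genes were whole numbers.

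The deposited estimated counts were rounded and tested with edgeR version 4.0.16 in R version 4.3.3 (filterByExpr, TMM, quasi-likelihood test, condition as the only term) with Benjamini-Hochberg adjustment over 14426 genes. The biological coefficient of variation was 0.223. CPM used TMM factors (0.958 to 1.04). Standardised levels were from log2 CPM (prior count 2). Likeness was sought among tested genes with a mean of at least 5 CPM, leaving out GABA-A subunit genes. P-values measure the spread between these libraries. Alternatives were DESeq2 version 1.42.0, other size factors, other count filters, transcript length offsets (loess, span 0.5), the replicate number as a block, and leaving out each library. Marker levels as a term used the neuron list, and, added after the data were seen, the inhibitory and ganglion neuron lists. The test was also run on simulated counts, drawn for each gene independently and without shared shifts in tissue makeup. That run did not cover the inhibitory and ganglion list fits, and nothing is read from it here.

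The 7 genes and all lists were chosen with earlier results of these data known. Named were the GABA-A subunit genes of the lists, pathway genes at an unadjusted p under 0.05 plus those for synthesis, uptake, breakdown, GABA-B receptors and chloride transport, and the 5 genes most alike by each measure. A few genes of the lists and of the search for alike genes are not reported here and were left out of every list count and sum. Marker lists covered neurons (general, inhibitory, excitatory, motor and ganglion), astrocytes, oligodendrocytes and their precursors, microglia, peripheral myelin, muscle, erythroid cells, granulocytes and B cells. Promoters came from RefSeq (GRCr8), an assembly other than that of the counts, and no other coordinates are given.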

Additional observations from a re-analysis of the deposited data

How the results depend on the processing

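For the 6 subunit genes in the fit, the log2 fold changes stayed below 0 under every alternative run that kept the gene. *Gabrd* was not fitted. A minimum of 10 counts in every library removed *Gabrb1* and *Gabrb2*, so no median was formed there. The replicate numbers did not pair the libraries (correlations of deviations 0.214, -0.143 and 0.0538 for numbers 1 to 3). With the replicate block, 2 pathway genes and 8 markers were lower, 448 of all genes were higher, and with length offsets added to the block 2 pathway genes were lower. DESeq2 gave 2 lower pathway genes, 8 lower markers and 210 genes past the adjusted threshold. Length offsets gave 1321 higher genes. The neuron markers as a term gave 1508 lower genes and 3 past the adjusted threshold, and the ganglion markers 2 lower pathway genes, 9 lower markers, 1501 lower genes and 204 past it. Leaving out 1 library gave 0 to 10 lower and 1 to 3 higher pathway genes, 2 to 21 lower and 3 to 16 higher markers, 599 to 1388 lower and 307 to 920 higher genes of all, and 0 to 222 past the adjusted threshold, the last without SNI-NP replicate 1. The 10 pathway genes and 21 markers were without sham replicate 2.

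Signs turned for genes that did not pass the unadjusted threshold in the reported fit, and the cause was not tested. Of the turned values, that of *Slc6a11* with the inhibitory neuron markers passed it. *Slc32a1* is itself one of those markers. With the inhibitory neuron markers as a term, log2 fold changes were 0.0024 for *Gabra4*, 0.51 for *Gabre*, 0.26 for *Slc32a1*, 0.26 for *Slc6a11*, 0.050 for *Abat*, 0.094 for *Gabbr1* and 0.089 for *Slc12a5*. With length offsets the value was 0.016 for *Gabbr2*, and with the replicate block added 0.054 for *Gabre*. With 1 library left out they ranged from -0.58 to 0.16 for *Gabra4*, from -0.49 to 0.22 for *Gabre*, from -0.69 to 0.016 for *Slc6a11*, from -0.21 to 0.031 for *Abat* and from -0.39 to 0.014 for *Gabbr2*. Depth limits *Gabrd*, *Gabrb2* and *Gabrb1*, whose counts were between 0 and 75 per library.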

Other observations

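Markers of other cell types were counted at an unadjusted p under 0.05 in edgeR's test (quasi-likelihood), where 5.94% of all genes were lower and 4.91% higher. Of 70 markers tested, 5 were lower, a share near that of all genes. These were *Snap25*, *Map2* and *Elavl4* among 9 neuron markers, the excitatory neuron marker *Slc17a6* and the astrocyte marker *Slc1a2*. *Slc17a6* was at 50.1, 34.8 and 50.0 CPM in sham rats. In SNI-NP rats *Slc17a6* was at 25.3, 26.8 and 27.0 CPM, without overlap (log2 fold change -0.77). The excitatory neuron markers *Lmx1b* (-0.46) and *Tlx3* (0.61) overlapped between the groups. Of the 9 markers that were higher, 3 were B cell, 3 erythroid, 1 peripheral myelin, 1 muscle and 1 granulocyte marker. Of the inhibitory, motor and ganglion neuron, oligodendrocyte, precursor and microglia lists, none had a gene past that threshold. Without sham replicate 2, 21 markers were lower. The summed B cell markers were at 4.02 to 7.22 CPM in sham rats and 10.7 to 13.9 CPM in SNI-NP rats. The part of these cells in the subunit levels was not tested.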
